A study of Mus musculus with 3 samples.

Results

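This comparison set the gene expression of adult mouse pancreatic beta cells against that of pancreatic ductal cells from which Fbw7 had been deleted. Its members are genes, chosen as follows: of the probe sets that name a single gene, the one with the highest mean over the 3 arrays stood for its gene, and a gene was kept if the higher of its levels in the beta and deleted ductal arrays exceeded that array's median over such probe sets. That median is called the floor and was log2 5.30 in beta cells and 5.24 in deleted ductal cells. Of 19938 genes measured, 11095 were kept. Just at the threshold, the lowest higher level of a kept gene was 5.25 (in deleted ductal cells) and the highest of a gene left out was 5.30 (in beta cells). A gene that entered only through its high level in 1 array had to differ between them, so counts below describe these arrays and support nothing further.

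Beta cells were pooled from 3 mice of genotype Fbw7 +/+; MIP-GFP, in which a mouse insulin promoter drives green fluorescent protein, and these mice were untreated. Deleted ductal cells were pooled from 6 mice that carried Fbw7 F/F together with Ck19-CreERT and R26-LSL-YFP. In these a tamoxifen-activated Cre recombinase, driven by the cytokeratin 19 promoter, recombines the floxed alleles and switches on yellow fluorescent protein. Tamoxifen was injected on 5 consecutive days, and cells were collected 7 days later. The remaining array held ductal cells of 6 mice that carried Fbw7 +/+ with Ck19-CreERT and R26-LSL-YFP and had the same tamoxifen schedule, and its levels are given beside the others as wild-type ductal cells. All mice were C57BL/6 and older than 6 weeks, and each array used RNA from 30000 sorted cells, of which 18 ng was amplified. The design text names the sorted cells as GFP+ for all groups while the ductal cells carry YFP, so the gate used for the ducts is not settled. The beta cell array thus differed from the deleted ductal array in cell type, Fbw7 genotype, reporter, Cre and tamoxifen at once, and these cannot be told apart. Since each group is 1 array, spread could not be estimated, no test was made, and no difference has a replicate check. Levels are log2 intensities and are given with the verb read or as 1 array against another. A gene said to be at a value, or followed by a bare number in parentheses, has that difference, the beta cell level minus the deleted ductal level on the log2 scale.

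Beta cells are the insulin-secreting cells of the islets: they take up glucose through a transporter, close an ATP-sensitive potassium channel, open calcium channels and release peptide hormone from dense granules. Ductal cells line the tubes that carry digestive enzymes to the gut, secrete bicarbonate-rich fluid, and are joined into an epithelium by keratins and tight junctions. Fbw7, encoded by Fbxw7, is the substrate-binding subunit of a ubiquitin ligase that marks proteins such as Myc, Jun, cyclin E and Notch for degradation. Endocrine and duct cells arise from a common progenitor in the embryo, and the beta cell array served in this series as an endocrine reference for ducts without Fbw7.

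Islet hormone genes stood furthest above the deleted ductal cells. Of 14 listed, 13 were measured and 11 were above the floor. Of the 11, 7 were at least 2-fold higher in beta cells, where 5.13% of all kept genes were, and 0 were at least 2-fold lower, where 23.0% were. Their median difference was 2.32, against -0.049 over all kept genes. Over all 13 measured hormone genes it was 1.25. The hormone genes that led the comparison included those of other islet cells as well as the beta cell's own. The 250 bases before the transcription start of 3 of the 4 leading hormone genes are shown because these genes read high together in 1 array. They come from RefSeq (GRCm38.p6) and run 5′ to 3′ on the gene's strand. Capitals mark TAAT, the core of sites for homeodomain factors, on either strand (ATTA is its reverse), and TGACGTCA, the cyclic AMP response element. Ins2 is named only.
Iapp: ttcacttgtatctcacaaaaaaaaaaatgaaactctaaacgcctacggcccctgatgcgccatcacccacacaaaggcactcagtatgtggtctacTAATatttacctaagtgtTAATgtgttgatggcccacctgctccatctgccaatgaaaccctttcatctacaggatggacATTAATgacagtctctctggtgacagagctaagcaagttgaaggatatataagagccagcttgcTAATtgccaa
Sst: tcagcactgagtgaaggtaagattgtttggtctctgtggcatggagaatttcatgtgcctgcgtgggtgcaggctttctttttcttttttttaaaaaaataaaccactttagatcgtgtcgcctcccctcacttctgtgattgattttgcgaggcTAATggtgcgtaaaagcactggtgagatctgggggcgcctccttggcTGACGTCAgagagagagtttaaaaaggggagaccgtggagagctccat
Gcg: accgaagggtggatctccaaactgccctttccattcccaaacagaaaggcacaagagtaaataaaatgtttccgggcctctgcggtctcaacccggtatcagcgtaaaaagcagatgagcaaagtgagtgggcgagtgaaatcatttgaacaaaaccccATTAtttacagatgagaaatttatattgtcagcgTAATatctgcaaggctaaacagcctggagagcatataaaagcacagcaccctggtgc

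The Iapp window lies at chr6:142298175-142298424 on the plus strand and held 5 TAAT matches, 2 of which overlap in the run ATTAAT. The Sst window lies at chr16:23890845-23891094 on the minus strand and held 1 TAAT match and 1 TGACGTCA, the latter beginning 48 bases before the start. The Gcg window lies at chr2:62483654-62483903 on the minus strand and held 2 TAAT matches and 2 matches to TATAAA, the TATA box, counted on both strands. CANNTG, the E-box bound by basic helix-loop-helix factors, matched 3 times in Iapp, 1 time in Sst and 3 times in Gcg. Over 32851 windows of this length, 54.9% held TAAT, 66.2% CANNTG, 12.4% TATAAA and 1.55% TGACGTCA. Of the 11 hormone genes above the floor, 10 had a window, and TAAT was in 6 of these, CANNTG in 8, TATAAA in 3 and TGACGTCA in 1. A match is a stretch of letters and not a measured binding site.

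Iapp, which encodes islet amyloid polypeptide, co-released with insulin, read 9.86 in beta cells against 3.78 (wild-type) and 4.21 (deleted) in ductal cells. It was the gene with the highest difference of all (5.65), and since its ductal level was below the floor the fold is written as a bound, at least 24.5-fold. Ins2, an insulin gene, read 11.04, 5.31 and 5.87 in the same order (36.0-fold). Ins1 was not analysed here. Gcg, the glucagon gene of alpha cells, read 11.003, 4.77 and 5.75 (38.3-fold), and Sst, the somatostatin gene of delta cells, read 11.04, 5.06 and 5.40 (49.6-fold). Both ductal arrays were far below the beta cell array for these 4 genes. Pyy, the peptide YY gene, read 10.01, 5.68 and 6.00 (16.2-fold), and Ppy, the pancreatic polypeptide gene, read 8.32, 5.71 and 6.00 (5.00-fold). Ucn3, a urocortin peptide of mature beta cells, read 5.93, 4.62 and 4.68, at least 1.61-fold higher. Ghrl (0.58), Gip (0.60), Gast (0.52) and Npy (0.48), which encode ghrelin, gastric inhibitory polypeptide, gastrin and neuropeptide Y, differed by less than 2-fold. Cck and Cartpt read below the floor in both arrays.

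Granule proteins and prohormone processing genes were mostly higher in beta cells, and the exceptions were enzymes. Of 17 listed, 16 were measured and 12 were above the floor; 8 of these were at least 2-fold higher, 2 at least 2-fold lower, with a median of 1.49. Scg3, a granin that helps to form secretory granules, read 7.19 in beta cells against 3.73 (wild-type) and 3.85 (deleted) in ductal cells (at least 3.86-fold). Chga, chromogranin A, read 7.28, 4.85 and 4.89 (at least 4.12-fold), and its relatives Scg2 and Chgb were at least 2.26-fold and at least 2.13-fold higher. In each of these 4 granins both ductal levels were below the floor. Ptprn, a phosphatase-like protein of the granule membrane, was 2.65-fold higher and Erp27, a protein of the endoplasmic reticulum, 3.17-fold. Pcsk1n, an inhibitor of the prohormone convertase PC1, was at least 2.60-fold higher. The convertase gene Pcsk1 itself read 4.73 in beta cells, below the floor, and Pcsk2 was not analysed here. Cpe, the carboxypeptidase that trims prohormones, went the other way at 5.43 in beta cells against 7.67 (wild-type) and 7.92 (deleted) in ductal cells (5.60-fold lower). Pam, the peptide-amidating enzyme, was 2.26-fold lower as deposited, and after quantile normalization its difference was -0.69.

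**Figure D1:**
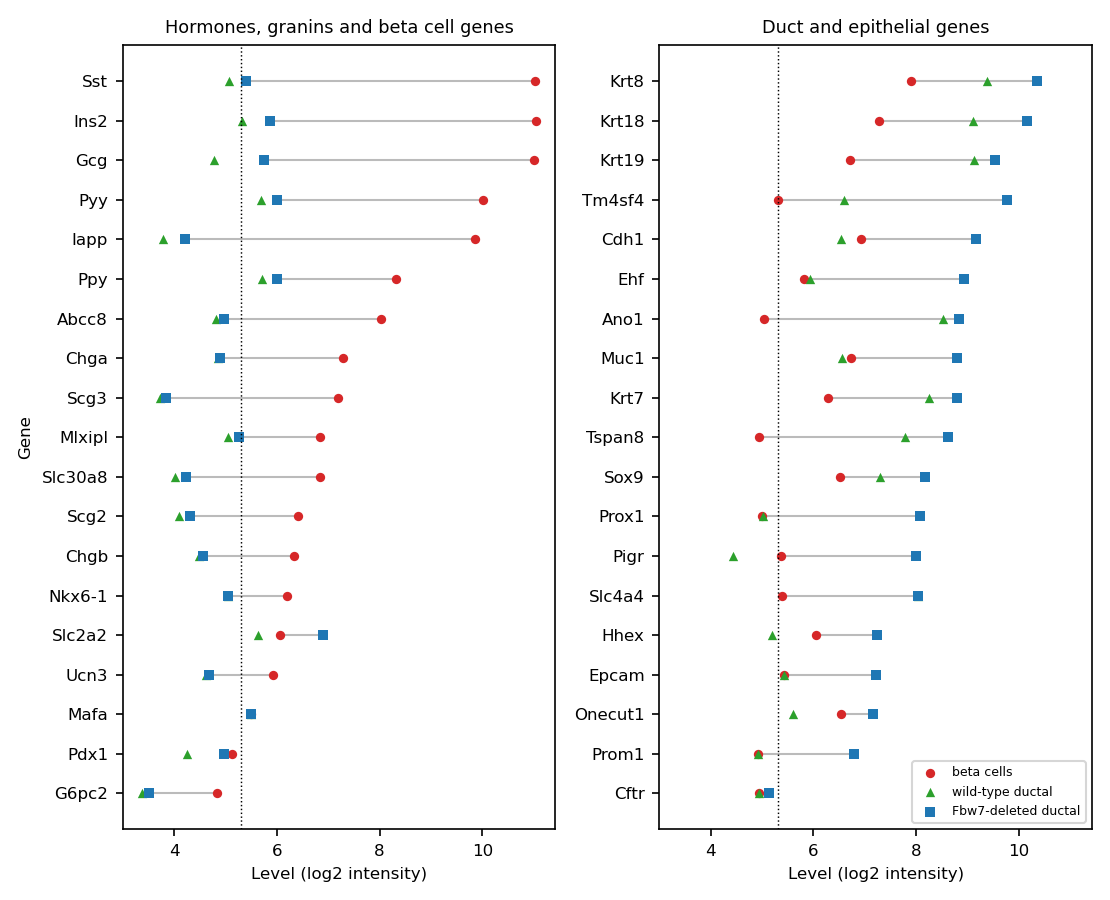
Log2 intensity (x axis) of endocrine genes (left) and duct and epithelial genes (right) in beta cells (circles), wild-type ductal cells (triangles) and Fbw7-deleted ductal cells (squares), 1 array each. Grey lines join beta and deleted ductal levels, and the dotted line is the beta cell floor at 5.30. Ins2, Gcg and Sst read 11.003 to 11.04 in beta cells and 5.40 to 5.87 in deleted ductal cells, whereas for Ehf, Prox1 and Epcam the beta and wild-type ductal points lie close together with the deleted ductal point to their right.

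Genes of the release machinery differed less. Of 25 regulated exocytosis genes, 23 were measured and 16 were above the floor, with 3 at least 2-fold higher, 0 at least 2-fold lower and a median of 0.35. The 3 were Slc30a8, the zinc transporter of the insulin granule (6.84 in beta cells against 4.23, at least 3.03-fold), Snap25, a membrane fusion protein (5.72 against 4.10, at least 1.40-fold), and Syp, the vesicle protein synaptophysin (5.94 against 4.80, at least 1.63-fold). With levels raised to the floor, 1 of the 3 was still 2-fold higher. Nsf, the ATPase that recycles fusion complexes, was the lowest member at -0.71, and Unc13a, a priming factor, was at -0.57 as deposited and 0.11 after quantile normalization. Most members thus lay within 2-fold of the deleted ductal cells, but so did most of all kept genes. Among all kept genes 5.13% were higher by 2-fold or more and 23.0% were lower, against 3 and 0 of these 16.

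Among 26 genes of glucose sensing and stimulus coupling, 21 were measured and only 8 were above the floor; 2 of the 8 were at least 2-fold higher, 0 at least 2-fold lower, and the median was 0.52. Abcc8, the sulphonylurea receptor subunit of the ATP-sensitive potassium channel, read 8.03 in beta cells against 4.82 (wild-type) and 4.97 (deleted) in ductal cells (at least 6.91-fold). Its partner Kcnj11, the pore subunit, read 5.68, 5.10 and 5.30, a difference of 0.38. Atp2a3, a calcium pump, was at least 1.67-fold higher, and the calcium channel subunits Cacna1d and Cacnb2 were at 0.73 and 0.54. The potassium channel gene Kcnk3 was at 0.51 and Gipr, the receptor of an incretin hormone, at 0.46. Slc2a2, the glucose transporter of mouse beta cells, read 6.05 in beta cells against 5.64 (wild-type) and 6.90 (deleted) in ductal cells, and was the 1 member above the floor that was lower in beta cells. G6pc2, an islet glucose-6-phosphatase, read 4.83 in beta cells, below the floor.

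Of 26 listed transcription factor genes of the endocrine lineage, 23 were measured and 13 were above the floor, with a median of 0.41. Of the 13, 4 were at least 2-fold higher, where 5.13% of all kept genes were, and 1 at least 2-fold lower, where 23.0% were. With levels raised to the floor, 1 was still at least 2-fold higher. Mlxipl, a glucose-responsive factor, read 6.84 in beta cells against 5.04 (wild-type) and 5.25 (deleted) in ductal cells (2.99-fold). Nkx6-1, a homeodomain factor of beta cells, read 6.19, 5.05 and 5.05 (at least 1.94-fold), and Pax4, a factor of beta and delta cell fate, was at least 1.48-fold higher. Pax6, needed for hormone transcription, read 5.31 in beta cells and 3.73 in deleted ductal cells; its difference was 1.59 as deposited, at least 1.05-fold against the floor, and turned to -0.086 with the loess trend removed. Insm1 (0.93), Nkx2-2 (0.52), Irx2 (0.41), Isl1 (0.14) and Etv1 (0.13) lay within 2-fold. Mafa, an activator of the insulin gene, read 5.49 in all 3 arrays. Glis3, a zinc finger factor that acts on the insulin gene, read 5.91 in beta cells against 5.95 (wild-type) and 7.50 (deleted) in ductal cells, and was the member at least 2-fold lower (3.02-fold). Foxa2 was at -0.11 and Hnf4a identical in both arrays. Pdx1, the factor of pancreas formation and beta cell identity, read 5.14 in beta cells against 4.25 (wild-type) and 4.96 (deleted) in ductal cells, all below the floor. Neurog3, the factor of endocrine progenitors, read 4.26, 4.20 and 4.20, also below it, as was its target Neurod1.

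Of 24 neural and neuroendocrine genes, 23 were measured and 11 were above the floor, with 4 at least 2-fold higher, 1 at least 2-fold lower and a median of 0.49. The imprinted genes led this list. Peg3, expressed from the paternal allele, read 9.80 in beta cells and 6.34 in both ductal arrays (11.04-fold). Meg3, a long noncoding RNA expressed from the maternal allele, read 10.68, 8.33 and 8.28 (5.30-fold). Nnat, an imprinted membrane proteolipid, went the other way at 5.90 in beta cells against 7.88 (wild-type) and 8.13 (deleted) in ductal cells (4.68-fold lower). Robo2, an axon guidance receptor, was at least 1.54-fold higher, and Stmn2, a tubulin-binding protein, was at -0.16.

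Genes that beta cells are known to keep low, such as those of lactate export, were lower than in the deleted ductal cells or within 2-fold of them, although 16 of the 20 read above the floor of the beta array. Of 20 listed and measured, 19 were above the floor; 0 were at least 2-fold higher, 11 at least 2-fold lower, with a median of -1.38 as deposited and -0.72 after quantile normalization. Slc16a1, the lactate and pyruvate carrier, read 4.49 in beta cells against 8.03 (wild-type) and 8.06 (deleted) in ductal cells (at least 6.76-fold lower). Mgst1, a microsomal glutathione transferase, read 5.07, 10.21 and 10.17 (at least 29.1-fold lower), and Oat, ornithine aminotransferase, was 10.9-fold lower. Zfp36l1, an RNA decay factor, was 13.9-fold lower, Nfib, a nuclear factor, 6.93-fold, and Igfbp4, a binding protein of insulin-like growth factor, 6.48-fold. Cat, catalase, was 3.39-fold lower. The transcription regulators Maf and Lmo4 were 2.60-fold and 2.27-fold lower, and Pdgfra, a growth factor receptor, at least 5.36-fold. Ldha, lactate dehydrogenase A, was at -0.74 (6.85 against 7.59) and Hk1, a hexokinase, at -0.65 as deposited, and after quantile normalization they were at 0.01 and 0.41. Smad3 (-0.94), Acot7 (-0.80), Cd44 (-0.53) and Cxcl12 (-0.17) lay within 2-fold. Yap1 (-0.28) and Zyx (-0.04) did as well, and both were above 0 after quantile normalization (0.21 and 0.95).

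Over all kept genes the balance was tilted toward lower values in beta cells. At least 2-fold higher were 569 of 11095 genes (5.13%) and at least 2-fold lower were 2552 (23.0%), so that 18.2% of the 3121 genes apart were higher. At 4-fold the counts were 63 (0.568%) and 915 (8.25%). The higher share of the 2-fold genes was 35.8% after quantile normalization, 29.7% with the loess trend removed, 32.0% without a floor and 9.86% once levels under the floor were set to it. The median over all kept genes moved from -0.049 as deposited to 0.11 after quantile normalization. The shares at least 2-fold higher and lower were 9.4% and 16.8% after quantile normalization, with each array centred 4.22% and 24.4%, with the loess trend removed 6.45% and 15.3%, and with levels raised to the floor 2.33% and 21.3%. Differences of single genes are to be read relative to these shifts, and the counts of every gene list beside the shares of 5.13% and 23.0%. In 394 of the 569 higher genes and 711 of the 2552 lower genes the lower level was below its array's floor.

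**Figure D2:**
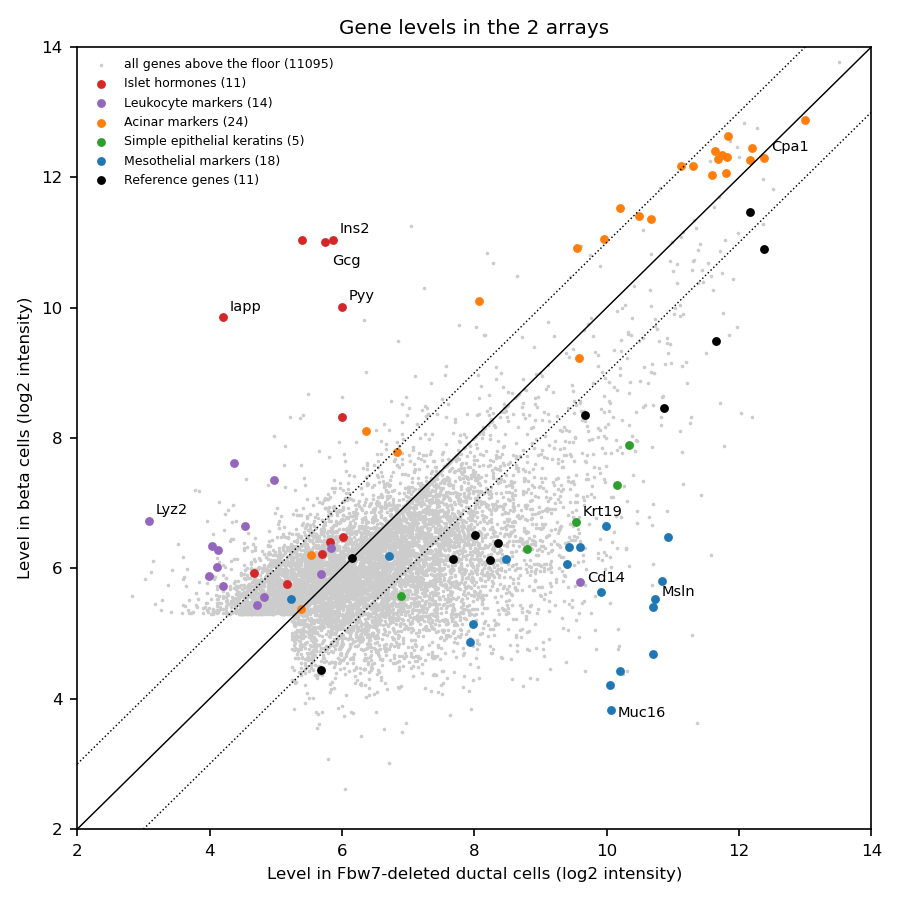
Log2 intensity of each of the 11095 genes above the floor in Fbw7-deleted ductal cells (x axis) and in beta cells (y axis), 1 array each. The solid line marks equal levels and the dotted lines a 2-fold difference; coloured points are list members with their numbers in the key. The leading hormones (Ins2 at 11.04 against 5.87) lie above the lines, 16 of 18 mesothelial markers (Muc16 at 3.82 against 10.07) below them, and most acinar markers between the lines at the top right.

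Values of the beta cell array were less spread than those of the ductal arrays. The SD over all 35556 probe sets was 1.57 in beta cells against 2.02 (wild-type) and 1.97 (deleted) in ductal cells, and the 95th percentile of single-gene probe sets was 7.22, 8.61 and 8.42. Genes with a deleted ductal level under 5 had a median difference of 0.91 (794 genes), those from 7 to 8 of -1.06 (1781 genes), those from 9 to 10 of -2.40 (292 genes) and those from 11 up of -0.79 (76 genes). Binned by the beta cell level, the medians were -1.58 under 5 (562 genes), -0.02 from 6 to 7 (3852 genes) and 0.46 from 11 up (44 genes). Reference genes, chosen for steady expression in most cells, were mostly lower in beta cells. Of 15 listed, 12 were measured and 11 above the floor, of which 0 were at least 2-fold higher, 9 at least 2-fold lower. Their median was -1.49 as deposited, -1.14 after quantile normalization and -0.91 with the loess trend removed. Ppia, a prolyl isomerase, read 8.47 against 10.87, B2m, the light chain of class I proteins, 9.50 against 11.65, and Tbp, the TATA-binding protein, 6.16 in all 3 arrays. The part of the narrower spread in these or any other differences was not tested.

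**Figure D3:**
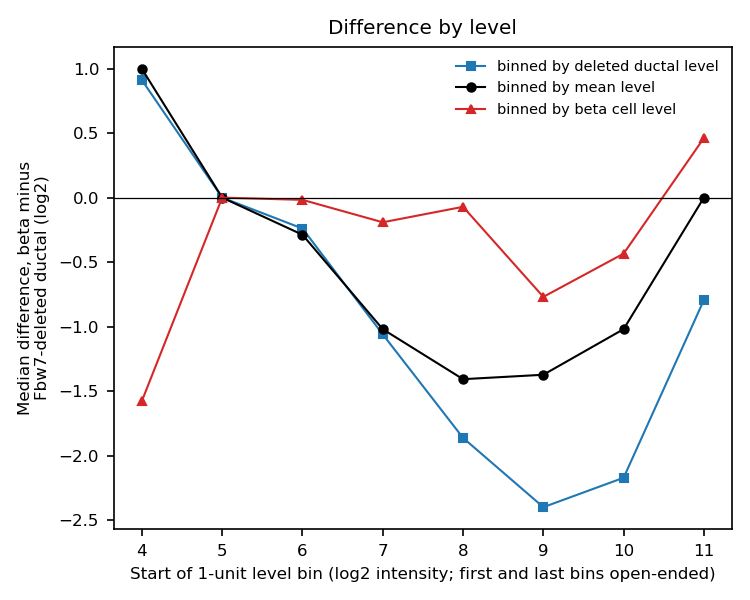
Median difference, beta minus Fbw7-deleted ductal cells (y axis, log2), for genes above the floor in 1-unit bins of level (x axis, log2 intensity, first and last bins open-ended). Squares bin genes by the deleted ductal level, triangles by the beta cell level and circles by the mean of both. Binned by the deleted ductal level, the median goes from 0.91 in the first bin to -2.40 in the bin from 9 to 10.

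Exact ties were common: 6830 of 35556 probe sets (19.2%) and 2319 of the 11095 kept genes (20.9%) held the same value in both arrays. Genes with 2 or more single-gene probe sets above the floor numbered 621, and the median SD of the difference between a gene's probe sets was 0.33. Of 282 such genes at least 2-fold apart, 241 had the same sign on all of their probe sets and 188 were 2-fold apart on all. Fbxw7 itself had 2 probe sets: 1 read 4.95 in all 3 arrays, below the floor, and the other 7.00 in beta cells against 6.32 (wild-type) and 5.71 (deleted) in ductal cells. No source used here places these probes relative to the floxed part, so they do not check the deletion.

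The labels were set against markers that define each cell type. Of 9 markers measured for beta cells, 7 were above the floor in the beta array, with Pdx1 and G6pc2 below it, while Mafa read the same in all arrays and Slc2a2 higher in deleted ductal cells. Among markers of other islet cells, Gcg and Sst read 11.003 and 11.04 in the beta array, as high as Ins2 at 11.04. Pyy read 10.01 and Ppy 8.32 there. The name beta cells is the label's, and whether this pool held other islet cells was not tested. Of 9 measured duct markers, 8 were above the floor in deleted ductal cells, and the exception was Cftr, the chloride channel of duct cells, which read 5.13 there. Most of the same markers were above the floor in the beta array too: Cdh1 (read 6.92), Muc1 (6.74), Krt19 (6.71), Onecut1 (6.54), Sox9 (6.51), Krt7 (6.29) and Epcam (5.42). This count therefore hardly separates the arrays. Spp1 was not analysed here. Members of the marker lists of other cell types were also above the floor, as given with their values further on.

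Simple epithelial keratins, the intermediate filaments of duct epithelium, were lower in beta cells wherever they were above the floor. Of 7 listed and measured, 5 were above the floor, all of them at least 2-fold lower, with a median of -2.50 (-1.85 after quantile normalization). Krt19, whose promoter drives the Cre, read 6.71 in beta cells against 9.13 (wild-type) and 9.53 (deleted) in ductal cells (7.10-fold lower). Krt18 read 7.28, 9.10 and 10.15 (7.34-fold), its partner Krt8 7.90, 9.38 and 10.35 (5.45-fold), and Krt7 6.29, 8.25 and 8.79 (5.66-fold). Krt23 read 5.57, 5.37 and 6.89 (2.49-fold). The beta cell levels of the 5 were above the floor of that array, and those of Krt20 and Krt80 below it in both arrays.

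Duct and epithelial transcription factors were lower in beta cells or within 2-fold. Of 20 listed, 19 were measured and 13 above the floor; 0 were at least 2-fold higher, 6 at least 2-fold lower, with a median of -0.65. Against wild-type ductal cells, which share the beta cell array with this comparison, the median of the same 13 genes was 0.06. Ehf, an ETS factor of epithelia, read 5.81 in beta cells against 5.93 (wild-type) and 8.92 (deleted) in ductal cells (8.63-fold lower). Prox1, a homeobox factor of the developing pancreas and duct, read 4.99, 5.01 and 8.08 (at least 6.85-fold lower). In both genes the beta and wild-type ductal levels were alike and the deleted ductal level stood apart. Sox9, the factor that maintains duct cells, read 6.51, 7.29 and 8.17 (3.15-fold lower), and Gata6, a zinc finger factor, 6.26, 8.65 and 8.63 (5.15-fold lower). Hhex, a homeobox factor of ducts and delta cells, read 6.05, 5.20 and 7.24 (2.28-fold lower), and Nr5a2, a nuclear receptor of exocrine cells, 6.21, 4.68 and 7.37 (2.23-fold lower). Those 2 genes therefore lay between the ductal arrays in beta cells. Onecut1 (-0.61), Klf5 (-0.46) and Hes1 (-0.33) were lower by less than 2-fold as deposited, and after quantile normalization they were at 0.02, 0.27 and 0.29. Tfcp2l1 was at -0.65, Onecut2 at 0.16 and Ovol2 at 0.26.

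Among junction and adhesion genes, some were lower in beta cells than in both ductal arrays and others only than in the deleted one. Of 33 listed, 32 were measured and 26 above the floor, with 0 at least 2-fold higher, 14 at least 2-fold lower and a median of -1.25. That median was -0.49 after quantile normalization, -0.62 over all 32 measured and -0.08 against wild-type ductal cells. Cdh1, the epithelial cadherin, read 6.92 in beta cells against 6.54 (wild-type) and 9.17 (deleted) in ductal cells (4.76-fold lower). Epcam, an epithelial adhesion molecule, read 5.42, 5.42 and 7.22 (3.49-fold lower). In these 2 genes the beta level was at or above that of wild-type ducts. F11r, a junctional adhesion molecule, read 5.23 in beta cells against 9.28 (wild-type) and 9.32 (deleted) in ductal cells (at least 16.2-fold lower). Cxadr, a tight junction receptor, read 5.51 against 8.53 in both (8.09-fold lower), and Ctnnb1, beta-catenin, 6.87 against 9.48 in both (6.12-fold lower). Cgn, cingulin, was at 0.48, Gjb2, a connexin, at 0.82 and Cldn4, a claudin, at 0.33.

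Genes of duct fluid and bicarbonate transport were lower or little different in beta cells. Of 22 listed, 20 were measured and 14 above the floor, with 0 at least 2-fold higher, 6 at least 2-fold lower and a median of -0.85. Ano1, a calcium-activated chloride channel, read 5.03 in beta cells against 8.51 (wild-type) and 8.83 (deleted) in ductal cells (at least 11.5-fold lower). Slc4a4, the sodium bicarbonate cotransporter, read 5.38 against 8.04 in both ductal arrays (6.29-fold lower), and Aqp1, a water channel, 5.55, 8.40 and 7.89 (5.07-fold lower). Atp1b1, a sodium pump subunit, was at least 11.1-fold lower and Slc9a3r1, a scaffold of apical transporters, 5.87-fold. Kcnq1, a potassium channel, read 5.42, 5.25 and 7.20 (3.42-fold lower). Kcne3 (-0.96), Kcnn4 (-0.74), Slc12a2 (-0.59), Sctr (-0.33) and P2ry2 (0.31) lay within 2-fold, as did Car4 (0.13) and Aqp5 (identical). Slc4a2 was at -0.31 as deposited and 0.08 after quantile normalization. Cftr read 4.95, 4.95 and 5.13, below the floor everywhere.

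Surface and secreted proteins of ducts were mostly lower in beta cells. Of 26 listed, 24 were measured and 23 above the floor, with 2 at least 2-fold higher, 13 at least 2-fold lower and a median of -1.73, against 0.19 for the same genes relative to wild-type ductal cells. Tm4sf4, a tetraspan membrane protein, read 5.31 in beta cells against 6.59 (wild-type) and 9.77 (deleted) in ductal cells (22.0-fold lower). Reg3b, a secreted antimicrobial lectin, read 6.78, 6.03 and 10.64 (14.5-fold lower), and Slpi, a protease inhibitor of mucosa, 7.13, 11.69 and 11.43 (19.8-fold lower). Muc1, a membrane mucin, read 6.74, 6.55 and 8.79 (4.14-fold lower), and Prom1, prominin, 4.91, 4.91 and 6.78 (at least 2.78-fold lower). For Tm4sf4, Reg3b, Muc1 and Prom1 the deleted ductal level stood above both others. The members higher in beta cells were Muc4, a large mucin (at least 1.71-fold), and Tff2, a trefoil peptide (10.80 against 9.74, 2.08-fold).

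Cilium, Notch and Fbw7 substrate genes had list medians between -0.84 and 0.00 as deposited. Of 12 cilium and cyst genes listed, 9 were measured and above the floor, and 3 of the 9 were identical in both arrays. At least 2-fold higher were 0, where 5.13% of all kept genes were, and at least 2-fold lower 3, where 23.0% were. The 3 lower were Bicc1, an RNA-binding protein mutated in kidney cysts (6.93-fold), Glis2 (6.15-fold) and Pkhd1, fibrocystin (3.79-fold). Pkhd1 read 5.80 in beta cells against 5.64 (wild-type) and 7.73 (deleted) in ductal cells. The median of the 9 was -0.15 as deposited, 0.14 after quantile normalization and 0.05 with the loess trend removed. Of 18 Notch pathway genes, all measured, 12 were above the floor, with a median of 0.00 and 4 of the 12 identical. At least 2-fold higher were 0 and at least 2-fold lower 2, where 5.13% and 23.0% of all kept genes were. The 2 were Rbpj, the DNA-binding partner of Notch (2.49-fold lower), and Notch2, a receptor (2.34-fold lower), and neither was 2-fold apart after quantile normalization (-0.87 and -0.65). Of 20 genes encoding Fbw7 substrates, 19 were measured and 16 above the floor, with 0 at least 2-fold higher, 7 at least 2-fold lower; their median was -0.84 as deposited, -0.09 after quantile normalization and 0.01 with the loess trend removed. Mcl1, an inhibitor of apoptosis, read 6.30 against 8.39 in both ductal arrays (4.26-fold lower), and Mycn was at 0.74. Protein levels, on which Fbw7 acts, were not measured.

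**Figure D4:**
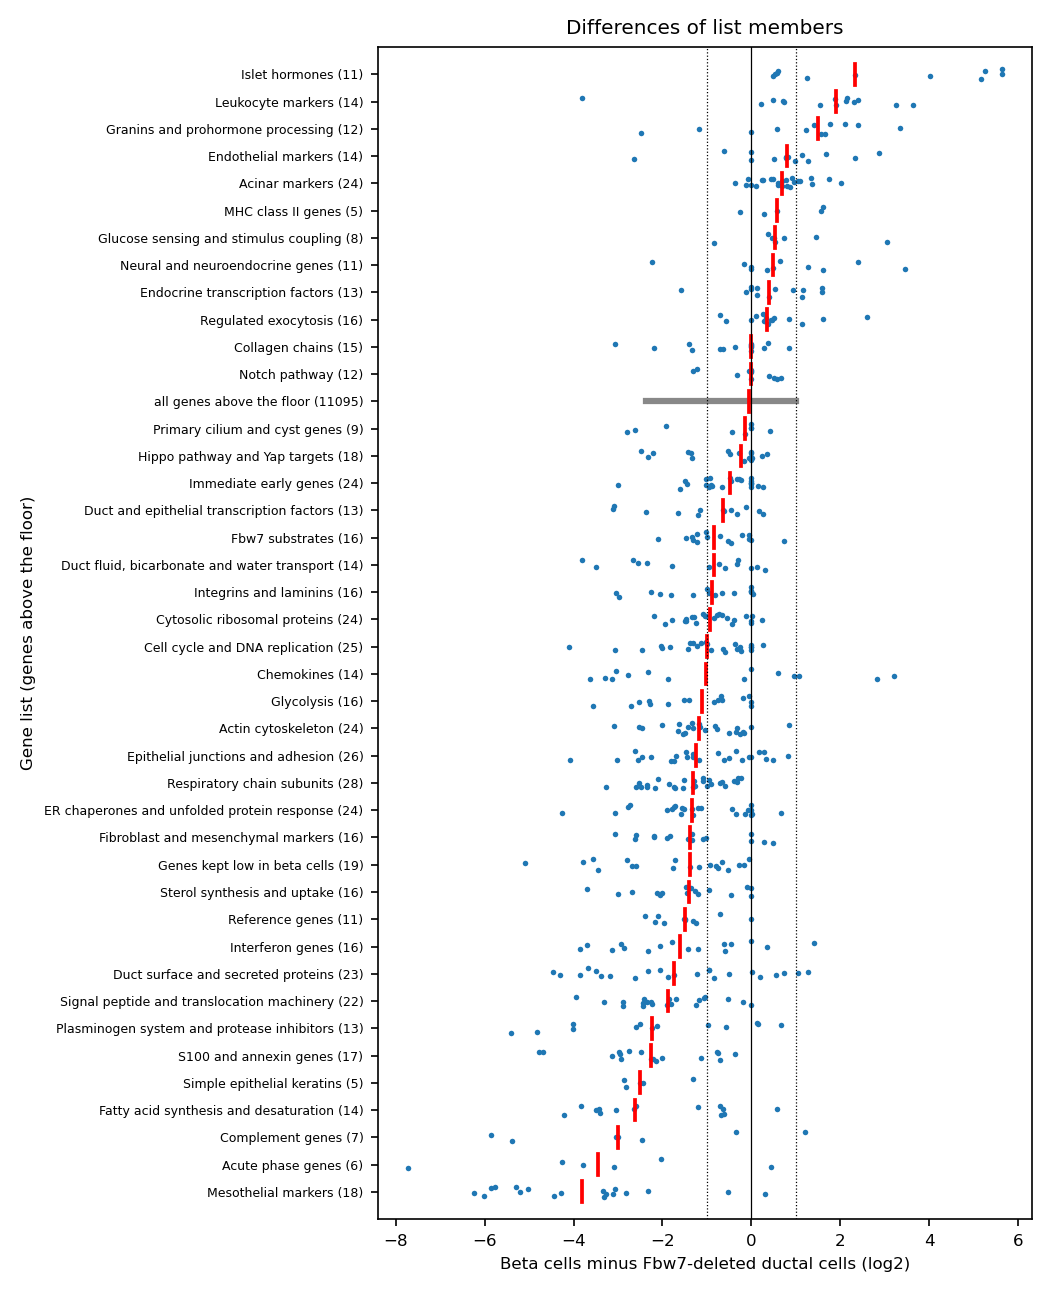
Difference, beta minus Fbw7-deleted ductal cells (x axis, log2), of each list member above the floor (points), with lists on the y axis ordered by their median (red bar) and the number of genes in brackets. The grey bar runs from the 5th to the 95th percentile of all 11095 genes; dotted lines mark 2-fold, and the red cell list, with 1 gene, is left out. Hormones have the highest median (2.32) and mesothelial markers the lowest (-3.81).

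Markers of cells other than beta and duct cells moved with this comparison, and their part in the results was not tested. In RNA of a pool, fewer cells of a type and less RNA per cell cannot be told apart. Mesothelial markers, genes of the lining of abdominal organs, had the lowest list median as deposited; after quantile normalization and with the loess trend removed, that of acute phase genes was lower (-3.50 and -3.16). All 18 listed were measured and above the floor, with 0 at least 2-fold higher, 16 at least 2-fold lower and a median of -3.81 (-3.41 after quantile normalization). Their summed level on the linear scale was 947 in beta cells, against 17069 (wild-type) and 17220 (deleted) in ductal cells, and 12, 18 and 17 of them were above the floor of the respective array. Msln, mesothelin, read 5.53 in beta cells against 10.61 (wild-type) and 10.73 (deleted) in ductal cells (36.8-fold lower). Muc16, a membrane mucin, read 3.82, 10.05 and 10.07 (at least 27.1-fold lower), Upk1b and Upk3b, uroplakins, were at least 42.1-fold and 39.1-fold lower, and Wt1, a mesothelial transcription factor, read 6.33, 9.73 and 9.44 (8.62-fold lower). Lrrn4 and Gpm6a, membrane glycoproteins, were at least 29.7-fold and at least 27.0-fold lower. Podxl (-0.52) and Cdh2 (0.30) were within 2-fold. Both ductal arrays thus held these markers high, and 7 of the 25 lowest differences in the whole comparison belonged to this list.

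Fibroblast and mesenchymal markers were lower in beta cells as well. All 19 listed were measured and 16 above the floor, with 0 at least 2-fold higher, 12 at least 2-fold lower and a median of -1.38, or -0.90 after quantile normalization. The summed linear level was 3497 in beta cells, against 18599 (wild-type) and 12769 (deleted) in ductal cells. Col1a2, a chain of type I collagen, read 6.48, 10.88 and 9.55 (8.40-fold lower), and Mgp, matrix Gla protein, 8.21, 11.11 and 10.81 (6.10-fold lower). Dcn, the proteoglycan decorin, read 9.92 in beta cells against 11.76 in deleted ductal cells (3.58-fold lower), which leaves a high level in both. Pdgfrb, the receptor of pericytes, was at 0.49 and Des, desmin, at 0.28, while Tagln, Fap and Postn were below the floor in both arrays.

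Most genes of digestive enzymes, the products of acinar cells, read high in all 3 arrays, while acinar transcription factors did not. Of 30 listed, 26 were measured and 24 above the floor, with 6 at least 2-fold higher in beta cells, 0 at least 2-fold lower and a median of 0.69, or 0.58 after quantile normalization. The median of the same genes relative to wild-type ductal cells was 2.11. Summed on the linear scale they came to 82586 in beta cells, against 20982 (wild-type) and 58719 (deleted) in ductal cells. Cuzd1, a zymogen granule protein, read 10.10, 6.09 and 8.08 (4.07-fold higher), Ctrc, a chymotrypsin, 8.11, 7.57 and 6.36 (3.37-fold higher), and Gp2, a zymogen granule membrane protein, 10.91, 7.41 and 9.54 (2.58-fold higher). Cpa1, a carboxypeptidase, read 12.30, 11.03 and 12.38, and Ctrb1, chymotrypsinogen, 12.88, 12.23 and 12.999. The trypsinogen gene Prss2 was at 0.60 and the elastase gene Cela2a at 0.60, while Prss3 was at -0.36 as deposited and 0.58 after quantile normalization. Bhlha15, an acinar transcription factor, read 5.38 in all arrays and Ptf1a, another, was below the floor.

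Leukocyte markers were higher in beta cells. Of 22 listed, 21 were measured and 14 above the floor, with 9 at least 2-fold higher, 1 at least 2-fold lower and a median of 1.90, which was 0.71 once levels under the floor were set to it. In beta cells 14 of the 21 were above that array's floor, and in each ductal array 3 were. Summed linear levels were 1327 in beta cells, against 1283 (wild-type) and 1197 (deleted) in ductal cells, a sum that includes Cd14, which was high in the ductal arrays. Lyz2, a lysozyme of myeloid cells, read 6.73, 3.02 and 3.08 (at least 2.81-fold higher), and Cd52, a surface peptide of lymphocytes and myeloid cells, 7.62, 4.30 and 4.37 (at least 5.20-fold higher). Tyrobp, an adaptor of myeloid receptors, was at least 4.35-fold higher, Laptm5 at least 2.67-fold, Mrc1, a macrophage receptor, at least 2.15-fold and C1qb, a complement subunit of macrophages, at least 2.06-fold. Ptprc, the pan-leukocyte marker CD45, read 5.88 against 3.995 (at least 1.55-fold higher). Cd14, a co-receptor for endotoxin, read 5.79 in beta cells against 9.76 (wild-type) and 9.60 (deleted) in ductal cells (14.1-fold lower). Adgre1, Itgam and Ms4a1, of macrophages, myeloid cells and B cells, were below the floor in both arrays.

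Of 7 class II genes of antigen presentation, 6 were measured and 5 above the floor. At least 2-fold higher were 2, where 5.13% of all kept genes were, and 0 at least 2-fold lower, where 23.0% were. The median was 0.59, and 0.29 once levels under the floor were set to it. It is the value of Ciita, which read 5.31 in beta cells, next to the floor. H2-Eb1 read 8.13 in beta cells against 7.22 (wild-type) and 6.51 (deleted) in ductal cells (3.05-fold higher), and H2-Ab1 8.21, 7.67 and 6.64 (2.97-fold higher). H2-Aa read 7.57 in both beta and wild-type ductal cells, against 7.29 in deleted ductal cells. Cd74, the invariant chain, read 7.53 in beta cells against 8.53 (wild-type) and 7.77 (deleted) in ductal cells. Its difference was -0.25 as deposited and 0.70 after quantile normalization. The summed linear levels of the class II genes were 1028, 976 and 628 in beta, wild-type and deleted ductal cells.

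Of 18 endothelial markers, all measured, 14 were above the floor, with 5 at least 2-fold higher, 1 at least 2-fold lower and a median of 0.80. Emcn, endomucin, read 7.02 in beta cells against 3.37 (wild-type) and 4.14 (deleted) in ductal cells (at least 3.43-fold higher), Pecam1, the adhesion molecule CD31, 6.73 against 4.40 in both ductal arrays (at least 2.82-fold higher), and Eng, endoglin, 6.72 against 5.05 in both (at least 2.80-fold higher). Cd34, shared by endothelium and mesenchymal cells, went the other way at 6.90, 10.39 and 9.54 (6.22-fold lower). In beta cells 14 of 18 were above that array's floor and in each ductal array 6 were. The summed linear levels were 1230, 1945 and 1366, and these sums include Cd34. Of the red cell list only 2 of 9 genes were measured, of which Slc4a1, the anion exchanger of red cells, was at 0.83 and Alas2 below the floor in all arrays.

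Secreted inflammatory and protease inhibitor genes held many of the lowest differences. Of 14 acute phase genes, all measured, only 6 were above the floor, with 5 at least 2-fold lower. Their median was -3.44, whereas over all 14 measured genes it was 0.40. Saa3, serum amyloid A3, had the lowest difference of the comparison (-7.73), reading 3.63 in beta cells against 11.79 (wild-type) and 11.36 (deleted) in ductal cells (at least 66.6-fold lower). Cp, the copper-carrying ceruloplasmin, was at least 16.4-fold lower, Il6, a cytokine, at least 6.11-fold and Il1rn, an interleukin-1 antagonist, at 0.43. Of 13 complement genes, 10 were measured and 7 above the floor, with 1 at least 2-fold higher, 5 at least 2-fold lower and a median of -3.00. Cfb, complement factor B, read 6.20, 11.54 and 11.58 (41.7-fold lower), C1s1, a subunit of the first component, 4.39, 10.17 and 10.25 (at least 30.9-fold lower), and C5ar1, an anaphylatoxin receptor of myeloid cells, was at least 1.29-fold higher.

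Among 16 genes of the plasminogen system and protease inhibitors, 14 were measured and 13 above the floor, with 0 at least 2-fold higher, 8 at least 2-fold lower and a median of -2.24. Timp1, an inhibitor of metalloproteases, read 4.77 in beta cells against 11.21 (wild-type) and 10.17 (deleted) in ductal cells (at least 29.2-fold lower), and Serpinb2, a plasminogen activator inhibitor, 4.57, 11.07 and 9.38 (at least 16.9-fold lower). Mmp2, a gelatinase, read 6.55, 8.06 and 5.89, a difference of 0.67. Serpinf1 (0.14) and Plaur (0.13), the urokinase receptor, were near equality. Of 20 chemokine genes, all measured, 14 were above the floor, with 3 at least 2-fold higher, 7 at least 2-fold lower and a median of -1.02. That median was -0.76 after quantile normalization, -0.66 with the loess trend removed and 0 over all 20 measured. Ccl11, eotaxin, read 8.68, 6.22 and 5.48 (9.19-fold higher), Ccl3, a chemokine of myeloid cells, 7.37, 4.53 and 4.55 (at least 4.37-fold higher), and Ccl9 was at least 1.76-fold higher. Ccl2, which attracts monocytes, read 6.23, 10.78 and 9.87 (12.4-fold lower), Cxcl1, which attracts neutrophils, was 9.81-fold lower and Cxcl5 at least 5.73-fold lower. The chemokine list thus held genes on both sides of the 2-fold lines.

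Of 18 collagen chains, all measured, 15 were above the floor, with a median of 0.00, and 5 of the 15 were identical in both arrays. At least 2-fold higher were 0, where 5.13% of all kept genes were. At least 2-fold lower were 4, which is near the share of all kept genes (23.0%). The 4 lower genes were Col1a2 (8.40-fold), Col3a1 (4.58-fold), Col14a1 (2.63-fold) and Col1a1 (2.53-fold). Col4a2, a basement membrane chain, read 6.93 against 6.09 in both ductal arrays, and Col6a3 was at 0.38. Of 23 integrins and laminins, 22 were measured and 16 above the floor, with 0 at least 2-fold higher, 7 at least 2-fold lower and a median of -0.88. Itgb8 was at least 5.77-fold lower, Itgav, its alpha partner, 7.86-fold and Itgb1, the most widely paired beta chain, 4.78-fold, while Lamc1, a laminin chain, was at 0.05.

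S100 and annexin genes, which encode calcium-binding proteins, were all lower in beta cells among the 17 above the floor (20 listed and measured), with 13 at least 2-fold lower and a median of -2.26 (-1.72 after quantile normalization). S100a4 read 5.05 in beta cells against 10.04 (wild-type) and 9.82 (deleted) in ductal cells (at least 22.8-fold lower), Anxa8 4.45, 9.24 and 9.14 (at least 14.3-fold lower), and Anxa3 5.44, 7.87 and 8.58 (8.80-fold lower). Anxa6 was the closest to equality, at -0.37 as deposited and 0.40 after quantile normalization. Of 26 actin cytoskeleton genes, 25 were measured and 24 above the floor, with 0 at least 2-fold higher, 14 at least 2-fold lower and a median of -1.17, which was -0.22 after quantile normalization. Ezr, ezrin, which links actin to the apical membrane, read 6.43, 9.74 and 9.52 (8.52-fold lower), Actn1, an actinin, was 5.76-fold lower and Vcl, vinculin, at least 5.15-fold. Myh9, a nonmuscle myosin, read 8.26 in all arrays. Among 19 genes of the Hippo pathway and Yap targets, 18 were measured and above the floor. At least 2-fold higher were 0 and at least 2-fold lower 6, where 5.13% and 23.0% of all kept genes were. The median was -0.22 as deposited, 0.12 after quantile normalization and 0.03 with the loess trend removed. Mob1a, a kinase activator, was 5.55-fold lower, Ccn1, a secreted Yap target, 5.00-fold and Tead1, the DNA-binding partner of Yap, 4.60-fold, while Ccn2 was at 0.25.

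Interferon genes were mostly lower in beta cells and immediate early genes turned with the scaling. Of 22 interferon genes, 19 were measured and 16 above the floor, with 1 at least 2-fold higher, 10 at least 2-fold lower and a median of -1.60. Ifitm2 and Ifitm1, antiviral membrane proteins, were 14.4-fold and 8.79-fold lower, and Bst2, tetherin, read 5.99, 10.17 and 9.68 (12.9-fold lower). Oas1a, an antiviral enzyme, read 5.53, 6.06 and 4.12 (at least 1.22-fold higher). Immediate early genes respond within minutes to stimuli such as tissue dissociation. Of 25 listed, 24 were measured and above the floor. At least 2-fold higher were 0, where 5.13% of all kept genes were, and 6 at least 2-fold lower, near the share of all kept genes (23.0%). Their median was -0.48 as deposited and 0.33 after quantile normalization and with the loess trend removed. Ier3 was 8.03-fold lower, the orphan receptor Nr4a1 3.04-fold and Klf4 2.82-fold, of which Nr4a1 and Klf4 were within 2-fold after quantile normalization.

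Lipid synthesis genes were lower in beta cells. Of 21 sterol genes, 18 were measured and 16 above the floor, with 0 at least 2-fold higher, 11 at least 2-fold lower and a median of -1.41 (-0.99 after quantile normalization). Idi1, an isomerase of the isoprenoid path, read 3.02 in beta cells against 6.72 (wild-type) and 6.71 (deleted) in ductal cells (at least 2.65-fold lower), and Hmgcs1, the synthase that starts the path, 4.37 against 7.37 in both (at least 4.20-fold lower). Mvk and Mvd, later enzymes of the same path, were identical in all 3 arrays. Of 16 genes of fatty acid synthesis and desaturation, 15 were measured and 14 above the floor, with 0 at least 2-fold higher, 9 at least 2-fold lower and a median of -2.62 (-2.19 after quantile normalization). The desaturases Scd2 (4.92, 8.55 and 9.13, at least 14.1-fold lower) and Fads2 (6.31, 9.61 and 10.15, 14.3-fold lower) and the elongase Elovl5 (11.3-fold lower) were furthest apart. Fasn, fatty acid synthase, was at -0.63, Acaca, the carboxylase that feeds it, at -0.62 and Acacb at 0.59.

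Of 22 glycolysis genes, 18 were measured and 16 above the floor, with 0 at least 2-fold higher, 8 at least 2-fold lower and a median of -1.11. Over all 18 measured the median was -0.79. Aldoa and Aldoc, aldolases, were 6.50-fold and at least 3.48-fold lower. Pkm, pyruvate kinase, read 8.73 in beta cells against 9.39 (wild-type) and 8.78 (deleted) in ductal cells, and was at -0.04 as deposited and 0.99 after quantile normalization. All 28 measured respiratory chain subunits (29 listed) were above the floor and lower in beta cells as deposited, 18 of them at least 2-fold, with a median of -1.31. After quantile normalization the median was -0.49, and 9 were at least 2-fold lower. Ndufa4 read 7.03, 10.72 and 10.31 (9.70-fold lower) and Uqcrc2, a core subunit of complex III, 5.51 against 8.12 in both ductal arrays (6.08-fold lower), while Ndufs1, of complex I, was at -0.23.

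Genes of the protein export path were lower in beta cells, as were the reference genes. The reference genes had a median of -1.49, with 9 of 11 at least 2-fold lower, where 23.0% of all kept genes were. Whether the export path differed beyond that shift was not tested. Of 24 signal peptide and translocation genes, 22 were measured and above the floor, with 0 at least 2-fold higher, 19 at least 2-fold lower and a median of -1.89 (-1.51 after quantile normalization). Ssr3, of the translocon-associated complex, read 5.74 in beta cells against 10.04 (wild-type) and 9.68 (deleted) in ductal cells (15.3-fold lower), Sec11a, a signal peptidase subunit, 5.71, 9.13 and 9.02 (9.95-fold lower), and Spcs1, another, was 7.43-fold lower. Sec11c, the paralog of Sec11a, read 6.94 in all 3 arrays. Of 24 chaperones and unfolded protein response genes of the endoplasmic reticulum, all measured and above the floor, 0 were at least 2-fold higher, 15 at least 2-fold lower, with a median of -1.33 that was -0.39 after quantile normalization. Pdia3, a disulphide isomerase, read 5.32, 9.64 and 9.58 (19.2-fold lower), Pdia6 was 8.43-fold and Pdia4 6.82-fold lower, and Trib3, induced by stress, was at 0.67.

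Of 36 cytosolic ribosomal protein genes, 24 were measured, all above the floor, with 0 at least 2-fold higher, 12 at least 2-fold lower and a median of -0.93. After quantile normalization it was -0.20, and 1 was at least 2-fold lower. Rpl7 was 4.57-fold lower, whereas Rps2 was identical in beta and deleted ductal cells and Rpl4 at 0.02. Of 30 cell cycle and replication genes, 28 were measured and 25 above the floor, with 0 at least 2-fold higher, 12 at least 2-fold lower and a median of -0.99. Rrm1, a subunit of ribonucleotide reductase, read 3.85 in beta cells against 8.42 (wild-type) and 7.95 (deleted) in ductal cells (at least 6.24-fold lower), Pcna, the sliding clamp of replication, 6.21, 9.19 and 9.28 (8.38-fold lower), and Ccnd1, cyclin D1, 7.98, 8.08 and 10.44 (5.50-fold lower). Ccnd1 therefore read alike in beta and wild-type ductal cells. Ccnd2, the related cyclin D2, was at 0.27.

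Genes outside these lists also stood among the 25 highest and the 25 lowest differences. The 25 highest ran from 2.74 to 5.65, and in 16 the ductal level was below the floor. By list membership, 5 were in the hormone list, 2 in the leukocyte list and 1 in the endothelial list. Lsp1, Cd48 and Ccl3, which are also genes of leukocytes, are outside the leukocyte list and not in its count. Fyb, Lilr4b and Lilrb4a, at 2.97, 2.85 and 2.77, were in none of the lists. Among the rest, Gnao1, a G protein subunit of neural and endocrine cells, read 7.88 in beta cells against 4.90 (wild-type) and 5.14 (deleted) in ductal cells (at least 6.25-fold). Klk1b5, a kallikrein, read 8.31, 4.03 and 5.36 (7.70-fold), and Dpt, a matrix protein, 7.21, 4.40 and 3.77 (at least 3.92-fold). Lsp1, a leukocyte protein, read 8.36, 6.98 and 5.41 (7.70-fold), and Cd48, a leukocyte surface protein, 5.94, 3.15 and 3.11 (at least 1.62-fold). Iqca read 8.32, 4.69 and 5.21 (at least 8.45-fold). Trdn, which encodes triadin of the muscle calcium store, was 18.5-fold higher by the chosen probe set, and differences over its 19 probe sets ranged from 0.05 to 4.87.

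The 25 lowest differences ran from -7.73 to -4.58, and in 18 the beta cell level was below the floor. Chil1, a chitinase-like secreted protein, read 4.97 in beta cells against 10.82 (wild-type) and 11.30 (deleted) in ductal cells (at least 63.7-fold lower). Pkhd1l1, a relative of fibrocystin, was at least 32.2-fold lower, Prg4, the lubricating proteoglycan of serous and joint surfaces, at least 29.4-fold, and Serpina3n, a secreted protease inhibitor, at least 23.2-fold. Slc39a8, a metal ion transporter, was at least 20.7-fold lower and Slc44a1, a choline transporter, at least 12.5-fold. Heg1, a membrane protein of endothelium, read 5.74, 11.09 and 10.68 (30.8-fold lower), and the membrane proteins Emp3 and Emp2 were 24.6-fold and at least 19.5-fold lower. Both ductal arrays thus read high for Chil1 and Heg1.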

How the data were processed

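RNA of 3 sorted cell pools was measured on 3 expression arrays, 1 per group. The deposited values are log2 intensities per probe set, which the authors obtained by RMA per the submitters' processing notes. No source used here gives its version or says if all 3 arrays were normalized as 1 set. Per the labels' protocols, RNA was amplified (NuGEN) before biotin labelling, and amplification can alter relative levels. Of 35556 probe sets, the platform annotation gave 1 gene for 21789, several for 1621 and none for 12146, and the last 2 kinds were left out. By gene ID, 21698 matched RefSeq (GRCm38.p6), and 91 kept the annotation's symbol.

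Log2 differences were computed and genes at least 2-fold apart counted. A fold whose lower level was below the floor is a bound against the floor. The members and the 42 gene lists were chosen with earlier results of these data known. Named genes were drawn from the sets that follow, and not every gene of a set is named, so they are a selection. The sets are Fbxw7, the 25 highest and 25 lowest differences, and the 3 highest and 3 lowest of each list. These leave out predicted genes, RIKEN clones and chemosensory receptor, microRNA, snoRNA, immunoglobulin or T cell receptor genes at the 2 ends. Further sets are the members of the hormone, granule, transcription factor, keratin and cell type marker lists. Members above the floor of the stimulus coupling, duct fluid and beta-low lists complete them. Genes named as below the floor or not analysed come from the same lists. Results were recomputed with quantile normalization, median centring, a loess trend removed (span 0.3), the floor dropped or set at the 75th percentile, low levels raised to the floor, probe sets averaged, and thresholds of 1.5-fold and 4-fold. The steps were tested on simulated data. The software was matplotlib 3.10.9, statsmodels 0.14.6, pandas 2.3.3 and numpy 2.4.6 under Python 3.11.15. The number of arrays limits the precision.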

Additional observations from a re-analysis of the deposited data

How the results depend on the processing

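The count of genes at least 2-fold higher (569) was 1207 without a floor, 318 with the floor at the 75th percentile, 1051 after quantile normalization, 258 with levels raised to the floor, 1439 at 1.5-fold and 63 at 4-fold. The count lower (2552) was 1696 with the loess trend removed and 915 at 4-fold, and within 1.5 times of 2552 under the other settings. In the cases of fewer or more genes tested and other thresholds the construction sets the count; for quantile normalization and the loess trend the cause was not tested. The higher share of 2-fold genes was 14.8% with each array centred and 17.7% with the mean of probe sets. Among values at least 2-fold apart as deposited, the median of acute phase genes (0.40 without a floor) and Pax6 (-0.086 with the loess trend removed) reversed. Including smaller values, 22 of 354 named genes and 3 list medians changed sign after quantile normalization, and 32 genes and 4 list medians with the loess trend removed. Of 216 named genes at least 2-fold apart, 20 were within 2-fold after quantile normalization, 37 with the loess trend removed, 21 with levels raised to the floor, 2 with the mean of probe sets and 1 with centring. Of 23 lists with a median of at least 1 in size, 8 were below that after quantile normalization and 10 with the loess trend removed. No paired analysis was possible because each group is 1 array and the labels carry no replicate numbers. No alternative could leave out an array. Signal over background limits low genes: 1105 of the 3121 genes at least 2-fold apart had their lower level below the floor.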

Other observations

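Counts are given by gene type. Of 10670 protein-coding genes above the floor, 497 (4.66%) were higher in beta cells by 2-fold or more and 2522 (23.6%) lower. Of 234 long noncoding RNA genes, 29 (12.4%) were higher and 15 (6.41%) lower. Of 78 microRNA genes, 20 (25.6%) were higher and 0 lower, with a median of 0.65. Of 26 small nucleolar RNA genes, 3 were higher and 10 (38.5%) lower, with a median of -0.59. Mir375, a microRNA gene of islet cells chosen after its values were seen, read 6.70 in beta cells against 5.90 (wild-type) and 5.92 (deleted) in ductal cells, which is a difference of 0.79. By genomic span, the shortest of 5 equal groups of protein-coding genes held 166 of 2134 genes (7.78%) at least 2-fold higher and the longest 98 (4.59%), with 4.36%, 3.61% and 2.95% in the groups between. The shares at least 2-fold lower were 22.3%, 23.3%, 25.3%, 25.2% and 22.2% from shortest to longest. These are counts from single arrays with no test. Levels were not matched between gene types or span groups, although the difference varied with level. Over all kept genes its median was 0.91 at deleted ductal levels under 5 and -2.40 from 9 to 10.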
